A study of Homo sapiens with 7 samples.

Results

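The microRNAs described here are the 4 mature products of the clustered genes MIR221 and MIR222, hsa-miR-221-3p, hsa-miR-222-3p, hsa-miR-221-5p and hsa-miR-222-5p. They were chosen by name, as every row of the deposited table that carries one of these mature names, which gave 4 of its 498 rows. The table lists 480 mature names in all, and each member had a single row. A375 is an established human melanoma cell line with an activating BRAF mutation. In this study A375 cells were crosslinked with 1% formaldehyde and BRAF-X1, an isoform of the BRAF mRNA, was pulled down by its 3' UTR with the miR-CATCHv2.0 protocol. The small RNA that came down was then sequenced, to ask which microRNAs bind this isoform. The design had 2 probe sets against BRAF-X1, called ODD and EVEN, with 3 captures each, and a single control capture made with scrambled probes. ODD and EVEN together are called X1 probes below. All 7 captures came from the same line, so by the labels they differ only by probe set and replicate.

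MIR221 and MIR222 are neighbouring genes that are transcribed together. Each hairpin is cut into a 5p and a 3p strand, of which the 3p strand is the one usually loaded into Argonaute to guide silencing, while the 5p strand is mostly degraded. In melanoma the pair is known as growth-promoting, through silencing of the cell-cycle inhibitor CDKN1B and the receptor KIT. In RefSeq (GRCh38.p14) the hairpins lie on the minus strand at chrX:45746157-45746266 for MIR221 and chrX:45747015-45747124 for MIR222, 748 bases apart. Both lie within the bounds of the long noncoding RNA gene MIR222HG (chrX:45745214-45770267). The exons of that gene were not used here, so exon and intron were not distinguished.

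The mature sequences are shown because the members with the most reads share a seed, the bases that lead target pairing. They come from RefSeq (GRCh38.p14), which held 3 of the 4 members, and the capitals mark the seed, bases 2 to 8 counted from the 5′ end.
miR-221-3p: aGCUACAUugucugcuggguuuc
miR-222-3p: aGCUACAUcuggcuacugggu
miR-222-5p: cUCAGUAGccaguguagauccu
The 3p strands start with the same 8 bases and share 11 letters over the 21 positions that both have, so they differ only past the seed. Their genomic positions are chrX:45746180-45746202 for miR-221-3p and chrX:45747036-45747056 for miR-222-3p, both on the minus strand. No other mature microRNA of the RefSeq table has this seed. miR-222-5p, at chrX:45747073-45747094, has a different seed that no other entry shares.

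Levels are given in RPM, reads scaled to a total of 1000000 over all rows of a library, which is a share of what was sequenced and not an amount of RNA. The libraries held 4049 to 35508 reads, so 1 read was worth between 28.2 and 247 RPM. Of the 2 pigment cell markers listed, miR-204-5p had 1352 to 2937 RPM with X1 probes and 861 RPM with scrambled probes. The other, miR-211-5p, had no entry among the 480 mature names. Markers of other cell types were low with X1 probes. Summed over each list, blood markers reached at most 629 RPM, epithelial 494 RPM, endothelial 420 RPM, muscle 741 RPM and neuronal 494 RPM. In the scrambled library the same sums were 215, 0, 430, 646 and 1291 RPM. Only 1 of 7 blood, 2 of 6 epithelial, 1 of 2 endothelial, 2 of 4 muscle and 1 of 2 neuronal markers were tested. None of those passed either probe comparison, beside 0.826% (X1 probes against scrambled) and 0.413% (ODD against EVEN) of all tested microRNAs. Each sample's description ends in a number that the labels leave unexplained. ODD and EVEN replicate 1 carry 9, both replicates 2 carry 10, and both replicates 3 carry 12, as does the scrambled library.

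miR-222-3p was the most abundant member and the tenth most abundant mature microRNA by its mean of 18036 ± 4804 RPM over the libraries (SD, n = 7). It had 175, 571 and 99 reads in ODD replicates 1 to 3, which is 16171, 16081 and 24450 RPM. In EVEN replicates 1 to 3 it had 120, 183 and 99 reads, or 12914, 12628 and 20768 RPM. The scrambled library gave 108 reads, or 23241 RPM (exact Clopper-Pearson 95% interval 19103 to 27992). The highest values were those of ODD replicate 3, the scrambled library and EVEN replicate 3. The ODD and EVEN groups overlapped, and 5 of the 6 X1-probe libraries lay below the scrambled one.

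miR-221-3p, which shares the seed, came second among the members and 18th of all mature microRNAs. Its mean was 9119 ± 2102 RPM over the libraries (SD, n = 7). ODD replicates 1 to 3 gave 74, 404 and 34 reads, or 6838, 11378 and 8397 RPM. EVEN replicates 1 to 3 gave 95, 169 and 30 reads, or 10224, 11662 and 6293 RPM. The scrambled library had 42 reads, or 9038 RPM (exact 95% interval 6521 to 12197). It sat in the middle, with 3 X1-probe libraries above and 3 below, and the probe sets overlapped.

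The 5p strands were rare. miR-221-5p had 20 reads in all. ODD replicates 1 to 3 held 1, 13 and 1 of them, EVEN replicates 1 to 3 held 2, 0 and 1, and the scrambled library 2. The corresponding levels were 92.4, 366 and 247 RPM, then 215, 0 and 210 RPM, and 430 RPM. The scrambled value was above all 6 X1-probe values, but its 2 reads have an exact 95% interval of 52.1 to 1554 RPM, which holds every one of the other libraries' values apart from the 0. miR-222-5p had 5 reads. ODD replicates 1 to 3 held 2, 0 and 1 of them, EVEN replicates 1 to 3 held 1, 1 and 0, and the scrambled library none. In RPM these were 185, 0 and 247, then 108, 69.0 and 0. A count of 0 in the scrambled library allows up to 646 RPM by 3 reads, above every library's miR-222-5p value, so a difference was not detectable at this depth.

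**Figure D1:**
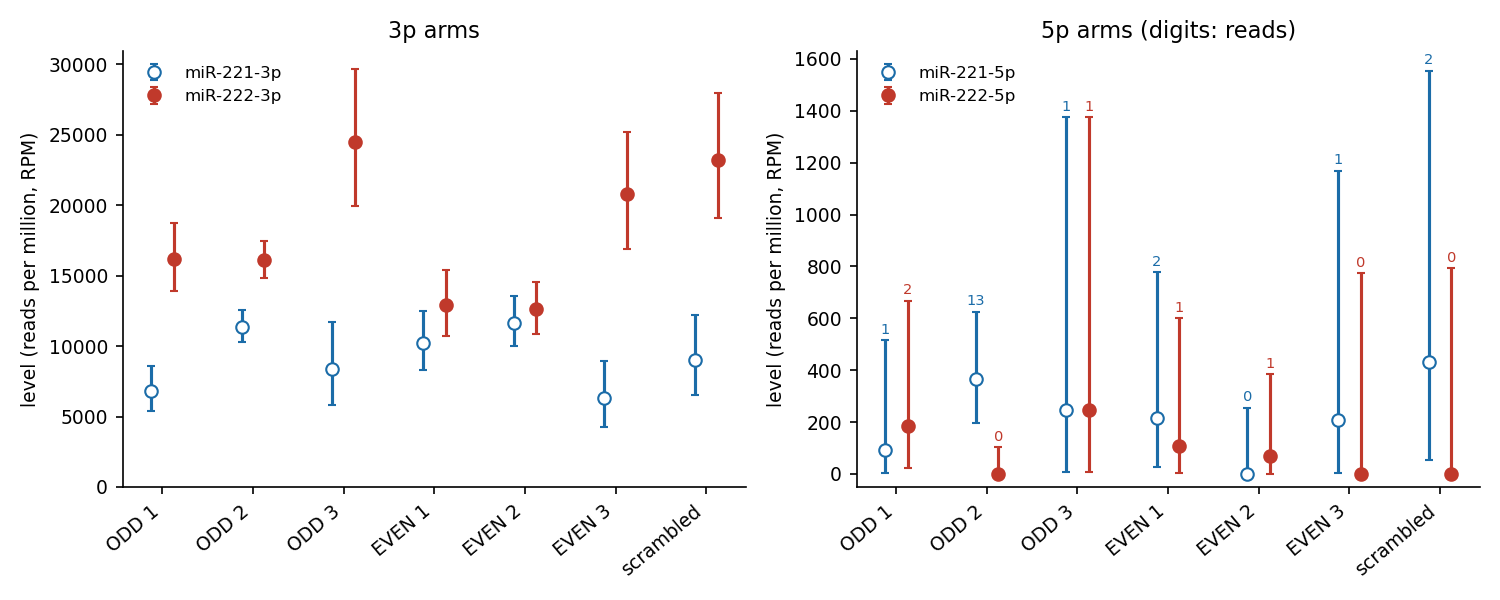
Level in RPM of the 3p strands (left) and the 5p strands (right) in each library, with exact 95% intervals that cover counting error only. Blue open circles are miR-221 and red filled circles miR-222, and digits on the right are reads. miR-222-3p lies above miR-221-3p in all 7 libraries, and the 5p strands rest on 0 to 13 reads.

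The order by mean level was miR-222-3p, miR-221-3p, miR-221-5p and miR-222-5p. miR-222-3p had more reads than miR-221-3p in 7 of 7 libraries, and miR-221-3p had more than miR-221-5p in 7 of 7. The last neighbours did not separate. miR-221-5p had more reads than miR-222-5p in 4 libraries, as many in 1 and fewer in 2. Levels of different microRNAs can also differ by how well each is ligated and amplified, which was not measured here.

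Arm use was strongly one-sided for both genes. Over all libraries, 20 of 868 miR-221 reads came from the 5p strand, a share of 2.30% (exact 95% interval 1.41 to 3.54). For miR-222 it was 5 of 1360 reads, or 0.368% (exact 95% interval 0.119 to 0.856). These intervals do not overlap, and the 5p share was higher for miR-221 in 6 of 7 libraries. ODD replicate 2 held 13 of the 20 miR-221-5p reads, however, and without it the shares were 1.55% (7 of 451 reads, exact 95% interval 0.626 to 3.17) and 0.634% (5 of 789 reads, exact 95% interval 0.206 to 1.47), which overlap. In other terms there were 42.4 reads of miR-221-3p for each of miR-221-5p, and 271 reads of miR-222-3p for each of miR-222-5p. Intervals on reads measure counting error alone, as the reads carried no stated molecular identifiers and may repeat a molecule.

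By library, the 5p share of miR-221 was 1.33%, 3.12% and 2.86% in ODD replicates 1 to 3, and 2.06%, 0% and 3.23% in EVEN replicates 1 to 3. The scrambled library had 4.55% (2 of 44 reads, exact 95% interval 0.555 to 15.5), higher than any X1-probe library but with an interval that spans all but the 0% of EVEN replicate 2. EVEN replicate 2 had 0 of 169 reads, which allows a share of up to 1.78% by 3 reads. The mean was 2.44% ± 0.964 with ODD and 1.76% ± 1.63 with EVEN probes (exact two-sided permutation p = 0.7; SD, n = 3 each). That difference, 0.673 percentage points, was smaller than the spread of the EVEN libraries. With the reads of a probe set pooled it was 1.84 percentage points.

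For miR-222 the 5p share was 1.13%, 0% and 1.00% in ODD replicates 1 to 3 and 0.826%, 0.543% and 0% in EVEN replicates 1 to 3. ODD replicate 2 had 0 of 571 reads, which allows up to 0.525% by 3 reads. The scrambled library had 0 of 108 reads, which allows up to 2.78% and so covers every X1-probe library. The means were 0.710% ± 0.618 with ODD and 0.457% ± 0.420 with EVEN probes (exact two-sided permutation p = 0.6; SD, n = 3 each). With the reads of a probe set pooled, the direction turned, to a difference of -0.14 percentage points for ODD minus EVEN.

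Set among other microRNA genes, both sit at the 3p end of the range. Both strands were listed for 79 genes, and 39 of them had at least 50 reads over both. Of these 39, the 3p strand led in 17 and the 5p strand in 22. miR-222 had the lowest 5p share of all 39, followed by miR-92b at 0.487%, and miR-221 was sixth, between miR-140 at 0.939% and miR-28 at 3.52%. The median share of the minor strand, whichever it was, was 3.52%. Genes without both strands listed were left out, so a gene whose 5p strand had no entry has no place in this order. The order is a description of pooled reads, and counting error leaves neighbours such as miR-222 and miR-92b unseparated.

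**Figure D2:**
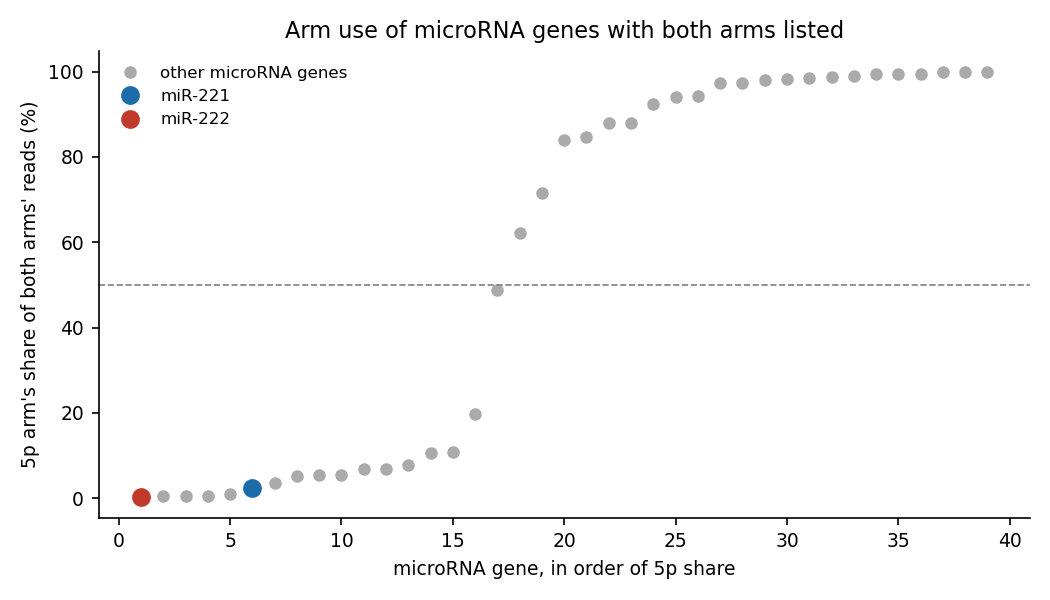
Share of reads from the 5p strand (vertical axis, percent) for the 39 microRNA genes with both strands listed and at least 50 reads, pooled over 7 libraries and placed in order of that share. The dashed line marks equal use. miR-222 (red) is first at 0.368% and miR-221 (blue) sixth at 2.30%.

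The 3p strands were then compared with each other inside each library, where the library total drops out. miR-222-3p had 2.36, 1.41 and 2.91 reads per miR-221-3p read in ODD replicates 1 to 3, and 1.26, 1.08 and 3.30 in EVEN replicates 1 to 3. The scrambled library had 2.57 (exact 95% interval 1.78 to 3.77). All 6 X1-probe ratios were above 1, although the intervals of EVEN replicates 1 and 2 reached down to 0.957 and 0.874. The mean log2 ratio was 0.91 ± 0.68 with X1 probes (SD, n = 6, exact two-sided sign-flip permutation p = 0.03125, the smallest that 6 libraries can give), a geometric mean of 1.88-fold. That test takes the 6 libraries as independent, although ODD and EVEN libraries share replicate numbers. With the 3 replicate numbers as units, the smallest possible sign-flip p would be 0.25. Without any 1 library the smallest possible p is 0.0625, and the mean then ran from 0.75 to 1.07. By probe set the mean was 1.09 ± 0.54 with ODD and 0.72 ± 0.87 with EVEN probes (exact two-sided permutation p = 0.7; SD, n = 3 each). That difference of 0.37 ran from 0.065 (without EVEN replicate 2) to 0.87 (without EVEN replicate 3).

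The ratio also separated the libraries along another label. It was 2.57 to 3.30 in the 3 libraries whose description ends in 12 and 1.08 to 2.36 in the 4 libraries of numbers 9 and 10, with no overlap. How many other pairs of microRNAs divide the same way was not counted. The mean log2 ratio was 1.54 ± 0.18 (SD, n = 3) against 0.55 ± 0.49 (SD, n = 4). The difference was 0.99, or 1.99-fold (exact two-sided permutation p = 0.0571, the smallest that 3 against 4 can give, so the design cannot reach 0.05). Within the X1-probe libraries alone it was 1.08 (n = 2 against 4, exact permutation p = 0.133, again the smallest possible). This comparison was set up after the values were seen. ODD replicate 1, of number 9, came closest to the number 12 libraries at 2.36, and its interval of 1.79 to 3.15 overlaps theirs, whereas the partner library of the same number, EVEN replicate 1, had 1.26.

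The level of miR-222-3p, the numerator of that ratio and so not a separate observation, divided the same libraries. It was 22820 ± 1877 RPM in the number 12 libraries (SD, n = 3) and 14448 ± 1941 RPM in the others (SD, n = 4), and the groups did not overlap. Of the 242 tested microRNAs, 6.61% separated the same libraries without overlap in either direction. Of the 68 tested microRNAs with a mean of at least 1000 RPM, 7.35% were higher in all number 12 libraries. miR-221-3p had 7909 ± 1436 RPM against 10025 ± 2214 RPM, with overlap. In a limma fit of the 6 X1-probe libraries with the probe set as a covariate, the log2 difference of miR-222-3p was 0.65 (SE 0.20, 95% interval 0.23 to 1.07, unadjusted p = 0.00462) but its adjusted p was 0.391. For miR-221-3p it was -0.43 (95% interval -0.99 to 0.12, adjusted p = 0.501 by limma). That difference ran from -0.79 (without ODD replicate 3) to -0.071 (without EVEN replicate 3) with single libraries left out, and was -0.099 under quantile scaling. None of the 4 members passed, and neither did any other microRNA (0% of 242; at an unadjusted p under 0.05, limma had 7 higher and 15 lower).

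The number 12 libraries were also the 3 shallowest, with 4049 to 4767 reads against 9292 to 35508, so the number and the depth cannot be told apart. Summed muscle markers, 2 of 4 of them in the table, were 629 to 741 RPM in these libraries and 84.5 to 323 RPM in the others. They rest on 21 reads in all, and the number 12 values are 3 reads in each library. Neuronal markers had 420 to 1291 RPM against 92.4 to 479 RPM, on 37 reads, with overlap. The other lists overlapped too. Blood markers had 215 to 629 against 0 to 507 RPM, and epithelial markers 0 to 494 against 108 to 277 RPM. Endothelial markers had 0 to 430 against 56.3 to 108 RPM, and pigment cell markers 861 to 2937 against 1352 to 2368 RPM. The part of any of these markers in the ratio was not tested.

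**Figure D3:**
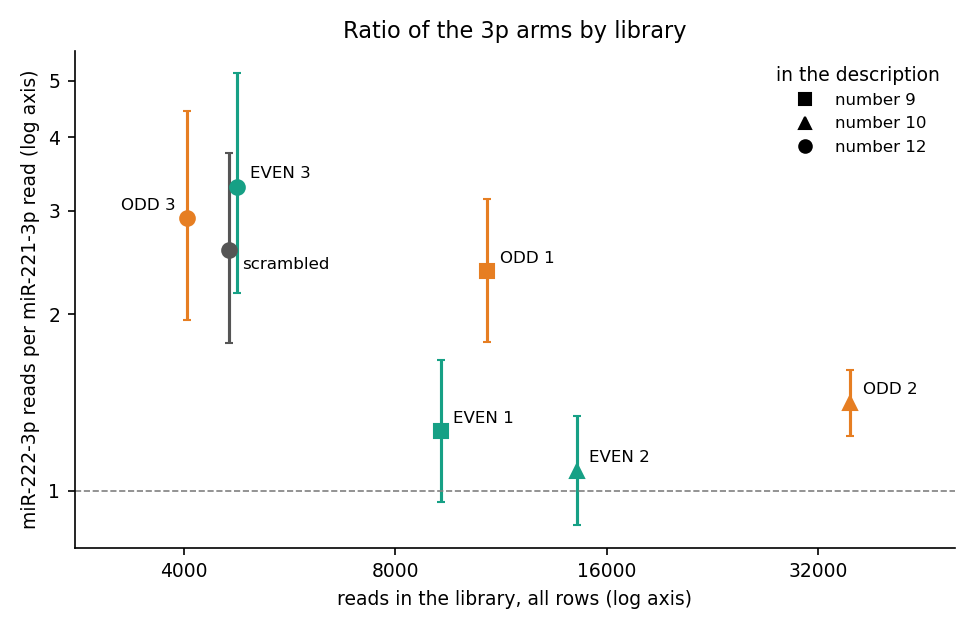
Reads of miR-222-3p per read of miR-221-3p (vertical log axis) against the reads of each library (horizontal log axis), with exact 95% intervals for counting error. Colours are ODD (orange), EVEN (green) and scrambled (grey), and shapes the number in the description. The number 12 libraries, all with 4767 reads or fewer, lie at 2.57 to 3.30 and the rest at 1.08 to 2.36.

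The capture question is whether any member was enriched with X1 probes over scrambled probes. No member passed that test. Of the 4 members, all of which met the filter of 10 RPM in at least 3 libraries, 0 passed limma's test at an adjusted p under 0.05, against 0.826% of the 242 microRNAs tested. At a share this low, that outcome says little about the 4 members. Differences are on the scale of log2(RPM + 10), and the pseudocount sets their size where reads are 0 or 1. miR-222-3p averaged 17169 ± 4623 RPM over the X1-probe libraries (SD, n = 6), with a log2 difference of -0.48 (SE 0.32, 95% interval -1.14 to 0.18, adjusted p = 0.673 by limma). With the description number as a block the difference was -0.045 (adjusted p = 0.942 by limma). Inside number 12, the 23241 RPM of the scrambled library lay between EVEN replicate 3 at 20768 and ODD replicate 3 at 24450 RPM.

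miR-221-3p averaged 9132 ± 2302 RPM over the X1-probe libraries (SD, n = 6) and showed a log2 difference of -0.025 (SE 0.36, 95% interval -0.75 to 0.70, adjusted p = 0.972 by limma). The lone scrambled library is assumed there to vary like the others. The interval was wider under some alternatives, at -1.53 to 1.47 without an eBayes trend and -1.04 to 0.99 without the filter. Blocking on the description number moved miR-221-3p to -0.31, where the 95% interval reached from -1.13 to 0.50 (limma, adjusted p = 0.698). For the 5p strands the intervals were too wide to bound a difference. They ran from -5.87 to 2.36 for miR-221-5p (difference -1.76, adjusted p = 0.673 by limma) and from -2.45 to 7.62 for miR-222-5p (difference 2.58, adjusted p = 0.673 by limma). The scrambled library lay outside the range of the 6 X1-probe libraries for 1 of the 4 members, miR-221-5p, as it did for 33.9% of the tested microRNAs.

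Between ODD and EVEN probes, none of the 4 members passed limma's test, against 0.413% of the 242 tested microRNAs. None had ODD and EVEN libraries without overlap, against 7.02%. At shares this low, that outcome says little about the 4 members. miR-222-3p averaged 18901 ± 4806 RPM in the ODD libraries and 15437 ± 4619 RPM in the EVEN libraries (SD, n = 3 each), a log2 difference of 0.30 (SE 0.24, 95% interval -0.20 to 0.80, adjusted p = 0.979 by limma). With single libraries left out it ran from 0.10 to 0.54. It was higher with ODD in each of the 3 replicate numbers, 16171 against 12914, 16081 against 12628 and 24450 against 20768 RPM. How many other microRNAs kept the same direction in every replicate number was not counted. With the replicate as a block, the 95% interval was 0.027 to 0.58 (unadjusted p = 0.0367, adjusted p = 0.766 by limma). By limma, the unadjusted p of miR-222-3p was 0.225 in the main fit, 0.0402 under quantile scaling and 0.0308 without EVEN replicate 3. That p stayed above 0.05 under the other scalings and with any other single library left out. miR-221-3p had 8871 ± 2307 against 9393 ± 2779 RPM, with a log2 difference of -0.067 (SE 0.27, 95% interval -0.62 to 0.48, adjusted p = 0.981 by limma). miR-221-5p had 235 ± 137 against 142 ± 123 RPM and miR-222-5p 144 ± 128 against 58.9 ± 54.5 RPM (SD, n = 3 each), with intervals of -1.67 to 4.55 and -3.00 to 4.62 on the log2 scale.

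**Figure D4:**
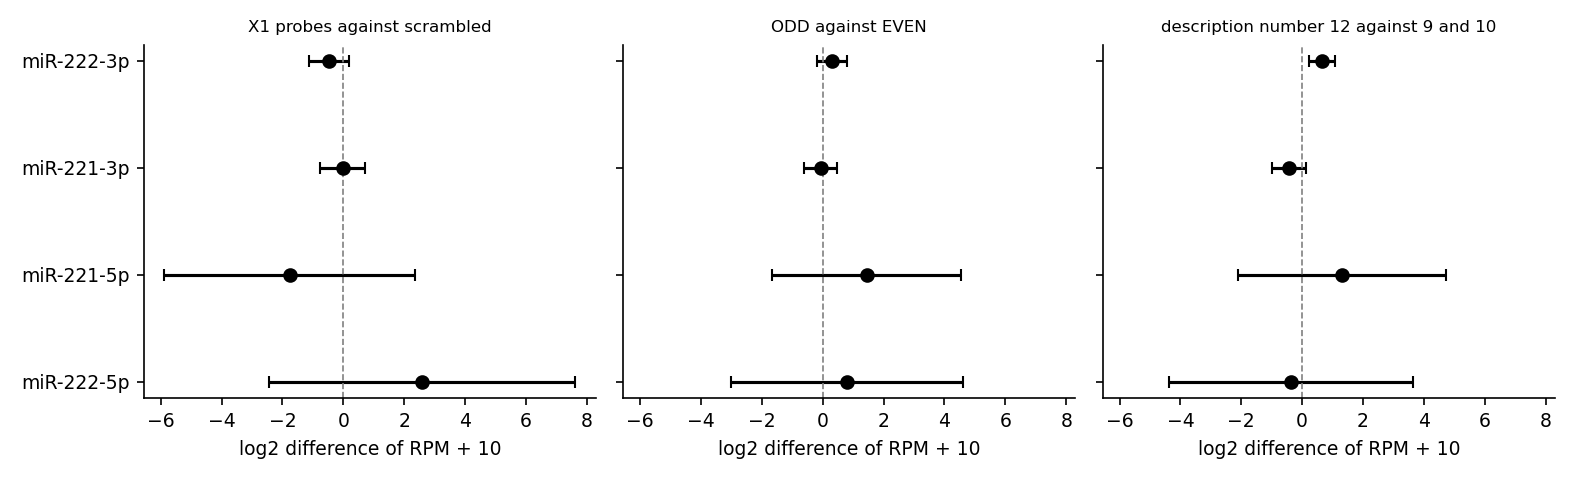
Log2 difference of RPM + 10 for each member (points) with limma's 95% interval (bars), for X1 probes against scrambled, ODD against EVEN, and number 12 against 9 and 10. The intervals of the 3p strands are narrower than those of the 5p strands, which span several log2 units. Against scrambled, the 3p intervals still run from -1.14 to 0.18 for miR-222-3p and from -0.75 to 0.70 for miR-221-3p. Only the interval of miR-222-3p in the last panel, 0.23 to 1.07, leaves out 0, and no member passed after adjustment.

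Together the 4 members held 2.33%, 2.78% and 3.33% of RPM in ODD replicates 1 to 3 and 2.35%, 2.44% and 2.73% in EVEN replicates 1 to 3. The scrambled library gave 3.27%. ODD replicate 3 and the scrambled library were highest. The mean was 2.82% ± 0.504 with ODD and 2.50% ± 0.199 with EVEN probes (exact two-sided permutation p = 0.5; SD, n = 3 each). The difference of 0.312 percentage points ran from 0.0525 (without ODD replicate 3) to 0.555 (without ODD replicate 1) with single libraries left out. The 4 tests of ODD against EVEN on shares and ratios form a family in which every adjusted p was 0.7 by the exact permutation test, and 0.1 is the smallest p that 3 against 3 can give.

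Across the libraries, the levels of miR-221-3p and miR-222-3p did not follow each other closely. Over the 68 microRNAs with a mean of at least 1000 RPM, profiles of log2(RPM + 10) in the 7 libraries were centred and compared by their root mean square difference. miR-222-3p ranked 50th of 67 in likeness to miR-221-3p, at 0.59 log2 units against a median of 0.47. The closest to miR-221-3p were miR-181b-5p (0.21), miR-1260b (0.21) and miR-1260a (0.23). miR-181b-5p was highest in EVEN replicate 2, at 22909 RPM, and ODD replicate 2, at 19010 RPM, the libraries in which miR-221-3p was highest too.

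The closest to miR-222-3p were miR-191-5p (0.15), miR-30a-5p (0.22) and miR-125b-5p (0.24). miR-191-5p had 39763, 41326 and 40026 RPM in ODD replicate 3, EVEN replicate 3 and the scrambled library, and 26367 to 31570 RPM in the others, the same division that miR-222-3p showed. Both members varied about as much as other abundant microRNAs, before any allowance for counting error, which is larger at fewer reads. Their highest value was 1.85 times the lowest for miR-221-3p and 1.94 times for miR-222-3p, with an SD of 0.35 and 0.39 log2 units against a median of 0.36. Profiles over 7 libraries that share depth and number are a description only. The named neighbours were picked for likeness over these same libraries, so their shared highs and divisions follow from that choice.

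Of 33 other microRNAs with reported roles in melanoma or pigment cells, 19 were tested. The filter can be met by X1-probe libraries alone but not by the single scrambled library alone. A microRNA read only with scrambled probes was therefore never tested, which favours calls of higher over calls of lower. With X1 probes against scrambled, 1 was higher and 0 lower by limma, and the median log2 difference was -0.38, beside 0.096 over all 242 tested. The one that passed was miR-17-5p, which is known to promote cell growth, named after its values were seen, with 50 reads with X1 probes and 0 with scrambled probes (adjusted p = 0.000662 by limma). Its mean was 786 ± 393 RPM with X1 probes (SD, n = 6), and the 0 in the single scrambled library allows up to 646 RPM by 3 reads, less than 1 SD below that mean. With 0 scrambled reads, it met the filter through X1-probe libraries alone. The size and p of this call depend on the pseudocount, and miR-17-5p did not pass with a pseudocount of 250 or when the fit blocked on the description number, where no microRNA passed. Between ODD and EVEN probes, 0 passed in either direction, with a median of 0.14 beside 0.072. Over the 194 microRNAs with a mean of at least 100 RPM, the medians were -0.080 (X1 probes against scrambled) and 0.097 (ODD against EVEN). Of all 242 tested microRNAs, 0.826% passed with X1 probes against scrambled and 0.413% between ODD and EVEN. At shares this low, 1 or 0 calls among 19 say little about the list. The 3 most abundant of the list were let-7a-5p, known as a tumour suppressor, miR-21-5p, which is raised in many tumours, and miR-10b-5p, known from metastasis. They had 43498 ± 7692, 23955 ± 3927 and 10964 ± 1119 RPM with X1 probes (SD, n = 6). The scrambled library had 37659, 18937 and 14203 RPM of them, and none of the 3 passed.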

How the data were processed

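Small RNA was measured in 7 miR-CATCHv2.0 captures from A375 cells. The authors deposited RPM for each hairpin and mature pair; CASAVA 1.8 and cutadapt 1.2.1 were used per the submitters' processing notes, and no aligner, counting rule, annotation or build is given in the sources used here. RPM as the unit was read from the values: each deposited column sums to 1000000, and 100% of values were whole multiples of 1 read (tolerance 1e-06 reads), which gave the reads. Some mature names have several hairpin rows that appear to repeat reads, so the RPM total holds repeats; a name was represented by its row of highest RPM. Columns were mapped to samples by the description.

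Differences were tested with limma 3.58.1 (R 4.3.3) on log2(RPM + 10), with group means and a trended eBayes, two-sided, adjusted by Benjamini-Hochberg over the 242 microRNAs with 10 RPM in at least 3 libraries. The scrambled group has 1 library, whose spread was assumed equal to that of the others. Nothing in the sources says the captures came from separate cultures, beyond the design text calling them independent, so p-values measure the spread between these libraries. Ratios and shares were tested with exact permutation tests (scipy 1.17.1) and given exact 95% Clopper-Pearson intervals, which cover counting error only; the floor for 0 reads is 3 reads. The fit was run on simulated reads with large known changes and counting error as the only spread. That setting cannot show how the fit performs on these libraries. Members, lists and tests were chosen with earlier results of these data known. Likeness was the smallest root mean square difference, the 3 closest named for each 3p strand; of the melanoma list the 3 most abundant were named.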

Additional observations from a re-analysis of the deposited data

How the results depend on the processing

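In all 3 limma comparisons 0 of the 4 members passed under every alternative run. These were other pseudocounts (1, 50 and 250), filters and scalings, no eBayes trend, blocks, summed hairpin rows and each library left out. The planned edgeR test and TMM factors on recovered reads were not run; median log2 ratio scaling, the fit without replicate 3 of both probe sets and the comparison by description number were chosen after seeing the data. Over all microRNAs the calls ran from 0 (pseudocount 250 and the number block) to 12 (no filter) against 2 for X1 probes, from 0 to 3 against 1 for ODD and EVEN, and from 0 to 4 against 0 for the number (4 without ODD replicate 3 and 4 without EVEN replicate 3). miR-222-5p dropped out under a mean of at least 100 RPM. Signs turned for these differences; the cause was not tested. For miR-221-3p with X1 probes against scrambled, rescaled RPM gave 0.011, median ratio scaling 0.046, and leaving out replicate 3 of both sets 0.12, while single libraries left out gave -0.12 to 0.11 (0.060 without ODD replicate 1, 0.107 without EVEN replicate 3). For miR-221-3p between ODD and EVEN, quantile scaling gave 0.026 and single libraries left out -0.33 to 0.11 (0.105 without ODD replicate 1, 0.018 without EVEN replicate 1, 0.113 without EVEN replicate 2). miR-221-5p between ODD and EVEN, 1.44 under the main settings, was -0.051 (without EVEN replicate 2) to 2.20 with single libraries left out, and 2.51 under pseudocount 1. miR-222-5p between ODD and EVEN, 0.81 under the main settings, ran from -0.28 (without EVEN replicate 3; -0.037 without ODD replicate 3) to 2.30 with single libraries left out, and was -1.13 without replicate 3 of both. Its difference for number 12 was 0.00044 and 0.079 under pseudocounts 50 and 250, 0.56 under quantile scaling, and -3.27 to 2.54 with single libraries left out (0.14 without ODD replicate 1, 0.17 without EVEN replicate 1).

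Without single libraries, the ODD minus EVEN difference in 5p share ran from -0.21 to 1.41 percentage points for miR-221 and from 0.025 to 0.608 for miR-222. From pooled reads it was 1.84 for miR-221 and -0.14 for miR-222, and for miR-222 it was -0.12 without replicate 3 of both sets. The log2 ratio of miR-222-3p to miR-221-3p over X1-probe libraries kept its sign, at 0.75 to 1.07 without single libraries and 0.55 without replicate 3 of both sets (4 libraries, exact sign-flip permutation p = 0.125, the smallest possible). By number it ran from 0.85 to 1.23. As a check of pairing, the deviations of ODD and EVEN libraries of the same replicate number correlated at -0.044, 0.072 and 0.019 over 242 microRNAs, and not every library correlated best with its own number. With the replicate block, 0 members passed between ODD and EVEN, and miR-222-3p had a log2 difference of 0.30 (adjusted p = 0.766 by limma). Depth limits the 5p strands most, with 20 and 5 reads over all libraries.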
